A study of Ovis aries with 8 samples.

Results

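The immediate early transcription factors FOS, JUN and JUND, the RNA-binding protein ZFP36 and the transcription factor ETS2 were followed in carotid arteries of sheep fetuses. Every non-control probe carrying one of these names was taken, which gave 8 probes for 5 genes, of 15008 probes on the array. The array lists FOS as C-FOS, JUN as C-JUN and ZFP36 as TTP, for tristetraprolin. FOS, JUN and ZFP36 had 2 probes each, and JUND and ETS2 had 1 each. The genes were selected on measured values of these same arrays, namely their co-variation between arrays and their log2 difference between hypoxia and normoxia, so both are given as descriptions, no p is given for any of the 5 genes, and counts of them past a threshold support nothing.

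Total RNA of the carotid artery was measured on single-colour Agilent ovine arrays, 1 array per fetus, at gestation day 140. The 4 hypoxia fetuses had mothers kept at 3801 m between gestation days 30 and 135, which the sample titles give as 110 days, and the mothers of the 4 normoxia fetuses stayed at 300 m. The comparison asks how long-term hypoxia of the mother alters expression in the fetal artery. No strain, sex or drug treatment is given for either group, and the labels do not say whether the fetuses of a group were from separate ewes. If they were not, arrays of a group were not independent, and the SD and SE may understate the spread between animals. The spread between arrays may also be partly technical. The adult arteries named in the study's design were not analysed here.

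FOS and JUN proteins pair through leucine zippers to form AP-1, a transcription factor whose genes are switched on within minutes of a growth factor, stretch or stress signal and switched off again soon after. JUND is a JUN relative that many resting cells make steadily. ZFP36 is itself an immediate early gene, and its protein binds AU-rich stretches of cytokine and growth factor mRNAs and speeds their decay. ETS2 is an ETS-domain transcription factor that MAP kinases activate and that often acts with AP-1 on the same promoters. In vascular smooth muscle these factors are known for their part in growth and in the response to injury.

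Levels below are log2 values of the processed signal relative to each array's own 75th percentile, so 0 is the 75th percentile of that array and a difference of 1 is a doubling. The 75th percentile itself ran from 97.9 intensity units on hypoxia 1 to 1387 on normoxia 3, and the share of probes well above background from 59.7% on normoxia 4 to 94.8% on hypoxia 3. The leading principal component of all features, with 69.8% of the variance, separated the arrays numbered 1 and 3 from those numbered 2 and 4 in either group. By the file headers, slide 1 carried normoxia 1 and 3 hypoxia arrays (1, 2 and 3), slide 2 carried normoxia 2 and hypoxia 4, and slide 3 carried the remaining normoxia arrays. All 3 measured smooth muscle markers (CNN1, MYLK and MYL6) were bright, with a mean level between 5.38 and 8.46 on every array. In a bulk sample, fewer cells of a type and less RNA per cell cannot be told apart.

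All 8 probes entered the test across the array, and 7 of them were well above background on all 8 arrays. At an adjusted p of 0.05 (limma, Benjamini-Hochberg over all features), 0 of the 8 probes passed, and 0 of 11216 features did (0%). The smallest adjusted p was 0.998, and the unadjusted limma p was under 0.05 for 413 features (3.68%), or for 1337 (11.9%) with the replicate number as a block, where 0 again passed after adjustment. The mean was higher in hypoxia for 8 of the 8 probes, against 48.3% of all features, and 7 of 8 had a difference of at least 0.5, against 17.1%. Those counts follow from how the genes were chosen. The median difference was 0.79 over the 8 probes and -0.02 over all features. The levels by array show that the 5 genes did not share a single pattern, and that the arrays carrying the difference changed from gene to gene and from probe to probe.

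**Figure D1:**
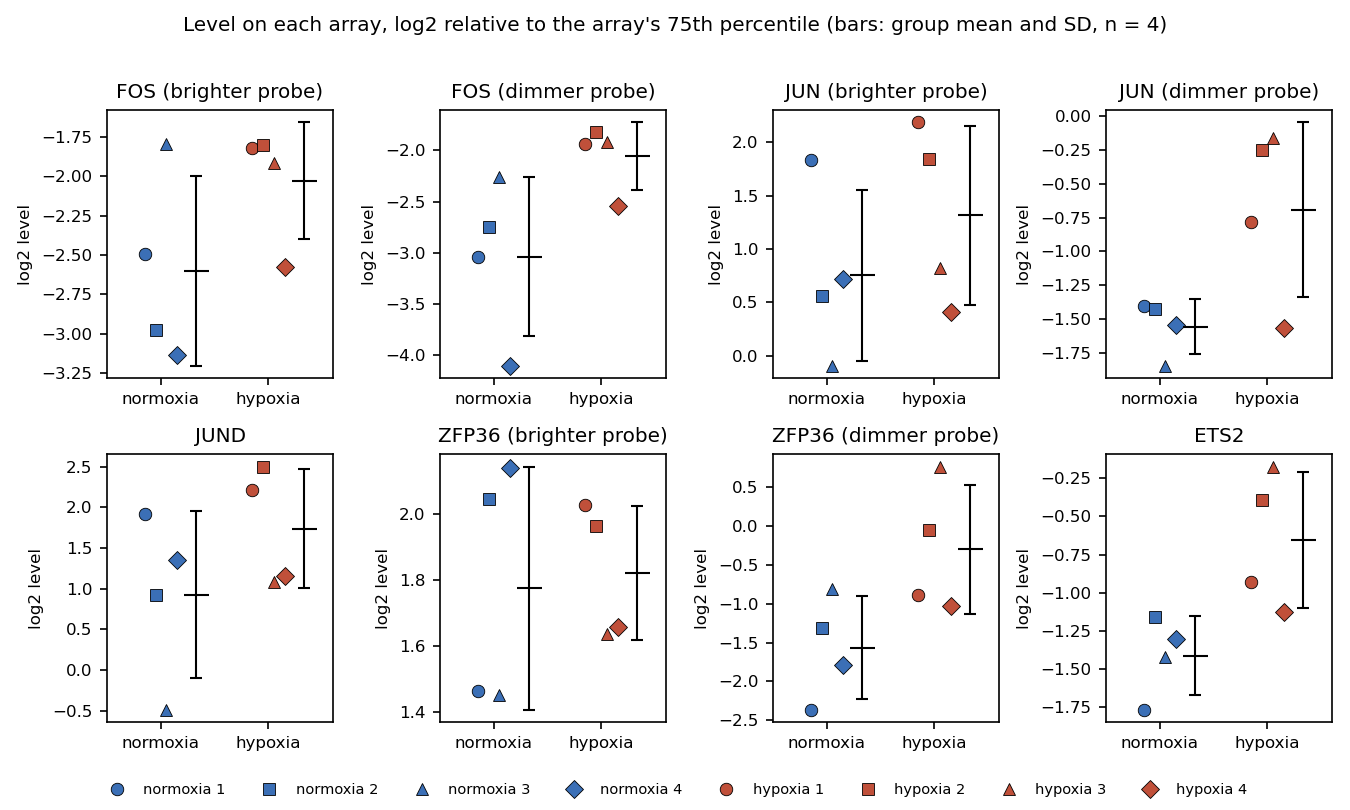
Levels of the 8 probes on each array, in log2 units relative to the array's 75th percentile; symbols give the replicate number, colours the group, and the bars the group mean and SD (n = 4). ETS2 has no overlap between the groups, by a gap between -1.16 on normoxia 2 and -1.13 on hypoxia 4, while the brighter ZFP36 probe has nearly equal means.

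FOS supplies the AP-1 subunit whose own mRNA is among the most short-lived. With probe A_70_P016316 the FOS level was -2.50, -2.97, -1.79 and -3.14 on normoxia 1 to 4, and -1.82, -1.80, -1.92 and -2.58 on hypoxia 1 to 4. Hypoxia 1, 2 and 3 lay close together, hypoxia 4 lay with the lower normoxia arrays, and normoxia 3 was the highest of all 8, so the groups overlapped. The group means were -2.03 ± 0.37 in hypoxia and -2.60 ± 0.60 in normoxia (SD, n = 4), a difference of 0.57 (SE 0.36).

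The second FOS probe, A_70_P016317, was at -3.04, -2.75, -2.26 and -4.10 on normoxia 1 to 4 and at -1.94, -1.83, -1.92 and -2.54 on hypoxia 1 to 4. Here 3 of the 4 hypoxia arrays were above the highest normoxia array, hypoxia 4 was again the low one, and FOS was higher in hypoxia in 4 of 4 pairs of arrays with the same number (13.8% of all features were). The difference was 0.98 (SE 0.42), but this probe was not well above background on normoxia 1 and normoxia 4, which were the lowest arrays for it. Without normoxia 4 the difference was 0.63. The 2 FOS probes, listed under the same sheep cDNA, had a Pearson correlation of 0.869 and a Spearman correlation of 0.762 over the 8 arrays.

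Both FOS probes lost their difference under another background correction. With normexp, which models background and then adds an offset of 50 intensity units, FOS was at -0.28 and -0.15 in hypoxia minus normoxia. That correction moved the median of all features to -0.31, and relative to that median the FOS probes stood at 0.03 and 0.17. The processed signals of FOS ran from 22.2 units on normoxia 1 to 400 on normoxia 3 for the first probe. The part of the offset in the normexp values was not tested.

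JUN, the partner of FOS in AP-1, was measured by 2 probes that differed most on hypoxia 3 and normoxia 1. With the brighter probe, A_70_P016313, JUN was at 1.83, 0.56, -0.09 and 0.72 on normoxia 1 to 4 and at 2.18, 1.84, 0.82 and 0.41 on hypoxia 1 to 4. The highest arrays were hypoxia 1, hypoxia 2 and normoxia 1, all on slide 1, and the lowest was normoxia 3, so the groups overlapped widely. The means were 1.31 ± 0.84 in hypoxia and 0.75 ± 0.80 in normoxia (SD, n = 4), with a difference of 0.56 (SE 0.54). With slide as a block the JUN difference turned to -0.19, and it was -0.22 within slide 1 and -0.15 within slide 2. It also moved with single arrays, to 0.27 without hypoxia 1, 0.28 without normoxia 3, 0.92 without normoxia 1 and 0.86 without hypoxia 4.

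With the dimmer JUN probe, A_70_P016311, the normoxia arrays lay close together, at -1.41, -1.43, -1.85 and -1.55, and the hypoxia arrays were spread, at -0.78, -0.25, -0.16 and -1.57 for hypoxia 1 to 4. Hypoxia 1, 2 and 3 were above all normoxia arrays and hypoxia 4 was below 3 of them. The difference was 0.87 (SE 0.35), with 1.01 within slide 1 and -0.14 within slide 2. The 2 JUN probes shared the low place of hypoxia 4 and normoxia 3 but differed on normoxia 1, which was level with hypoxia 2 on the brighter probe and with normoxia 2 on the dimmer one. Their Pearson correlation was 0.559 and their Spearman correlation 0.810.

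JUND, the steadily made JUN relative, followed the brighter JUN probe. It was at 1.91, 0.92, -0.49 and 1.36 on normoxia 1 to 4 and at 2.22, 2.50, 1.08 and 1.15 on hypoxia 1 to 4. Hypoxia 2, hypoxia 1 and normoxia 1 were again the 3 highest arrays, and normoxia 3 stood alone at the bottom. The means were 1.74 ± 0.73 in hypoxia and 0.93 ± 1.03 in normoxia (SD, n = 4), with a difference of 0.81 (SE 0.58). Without normoxia 3 the JUND difference was 0.34, and without normoxia 1 it was 1.14. With slide as a block it was 0.11, from 0.02 within slide 1 and 0.23 within slide 2.

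ZFP36 was the gene whose probes disagreed most. With the brighter probe, A_70_P030387, it was at 1.47, 2.04, 1.45 and 2.14 on normoxia 1 to 4 and at 2.03, 1.96, 1.64 and 1.66 on hypoxia 1 to 4. The 2 highest arrays, normoxia 4 and normoxia 2, and the 2 lowest, normoxia 3 and normoxia 1, were all normoxia, with the hypoxia arrays between them. The difference was 0.05 (SE 0.27) and the whole range over the 8 arrays was 0.69, against a median range of 1.88 over all features. An SD over the arrays as small as this or smaller was found in 6.85% of features. This small spread depended on the scaling, since the range of the probe was 1.92 with median scaling and 1.62 with normexp.

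The dimmer ZFP36 probe, A_70_P030386, aimed at the same RefSeq transcript, was at -2.37, -1.31, -0.81 and -1.79 on normoxia 1 to 4 and at -0.89, -0.04, 0.77 and -1.02 on hypoxia 1 to 4. Hypoxia 3 and hypoxia 2 were highest, normoxia 1 was lowest, and normoxia 3 lay above hypoxia 1 and hypoxia 4, so the groups overlapped. The level was higher in hypoxia in 4 of 4 pairs, with means of -0.30 ± 0.83 in hypoxia and -1.57 ± 0.66 in normoxia (SD, n = 4). The difference of 1.27 (SE 0.50) was the largest among the 8 probes, and it was 2.31 within slide 1 and 0.28 within slide 2. The 2 ZFP36 probes were uncorrelated over the 8 arrays, with a Pearson correlation of -0.03 and a Spearman correlation of -0.29. The mean of both probes gave a difference of 0.66, so whether ZFP36 differed between the groups in these arrays turned on the probe.

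**Figure D2:**
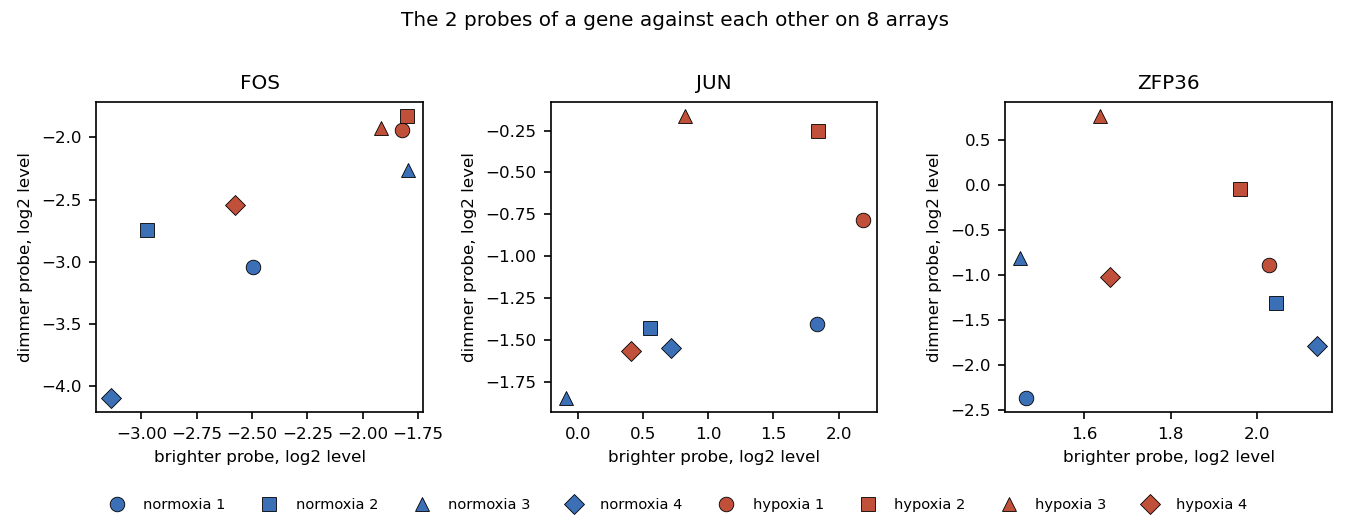
Log2 level of the dimmer against the brighter probe for FOS, JUN and ZFP36 on the 8 arrays; colours give the group and symbols the replicate number. The FOS probes rise together (Pearson r 0.869), the JUN probes part most on hypoxia 3 and normoxia 1, and the ZFP36 probes show no common order (r -0.03).

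ETS2 had a single probe, A_70_P041301, and its groups did not overlap on this scale. It was at -1.77, -1.16, -1.42 and -1.31 on normoxia 1 to 4 and at -0.93, -0.39, -0.17 and -1.13 on hypoxia 1 to 4. Hypoxia 3 and hypoxia 2 were the highest, and hypoxia 4 lay just above normoxia 2, an array of the same slide. The means were -0.66 ± 0.45 in hypoxia and -1.42 ± 0.26 in normoxia (SD, n = 4), a difference of 0.76 (SE 0.30) or 1.69-fold. Of all features, 1.72% had every hypoxia array above every normoxia array, and ETS2 was the only one of the 8 probes among them.

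The lack of overlap for ETS2 rested on the scaling. It also held in the authors' series table, which uses the same percentile, but the groups overlapped under quantile, median and cyclic loess scaling and with normexp. The size of the difference was 0.81, 0.58, 0.63 and 0.40 in those settings, and it stayed between 0.60 and 0.92 when any single array was left out. Within slide 1 it was 1.27, from 3 hypoxia arrays against normoxia 1, the lowest array for ETS2, and within slide 2 it was 0.03, from 1 array of each group.

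**Figure D3:**
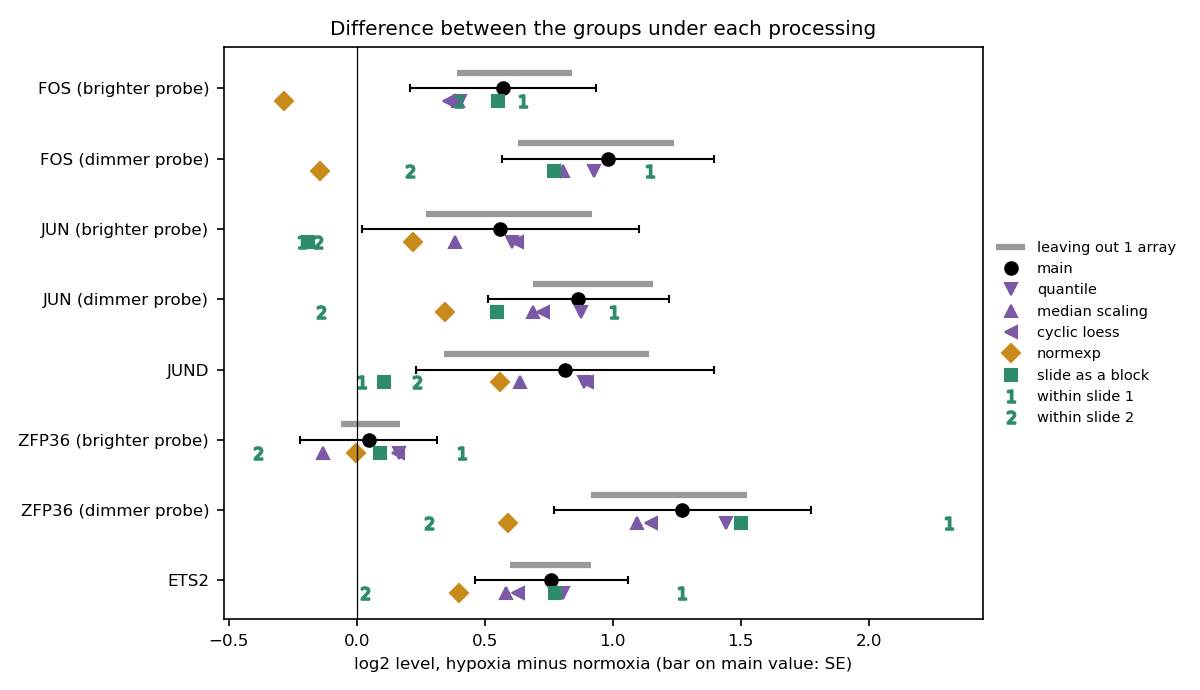
Difference in log2 level, hypoxia minus normoxia, for each probe: black points with the SE are the values in the text, grey bars the range when 1 array is left out, and the other symbols other scalings, normexp and the slide. FOS falls below 0 with normexp (-0.28 and -0.15), the brighter JUN probe below 0 with slide as a block (-0.19), and the dimmer ZFP36 probe and ETS2 lie far apart within slides 1 and 2.

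Between genes, the highest correlations over the arrays fell into 2 sets of probes. These correlations are over 8 arrays that share the split between replicates 1 and 3 and replicates 2 and 4 seen across all genes, so they describe the arrays and carry no p. The brighter JUN probe and JUND had a Pearson correlation of 0.910 (Spearman 0.857). It was 0.898 after the group means were removed and 0.860 without hypoxia 1 and hypoxia 2, the arrays farthest from the median of JUN. Of all features, 0.0624% correlated as highly with JUND as this JUN probe did, and 0.660% as highly with this JUN probe as JUND did. Co-variation was part of how the genes were chosen, so such shares are descriptions and support nothing. The other JUN probe had 0.581 with JUND.

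The second set was ETS2 with the dimmer ZFP36 probe and the dimmer JUN probe. ETS2 had a Pearson correlation of 0.926 with that ZFP36 probe and 0.889 with that JUN probe, and within groups these were 0.851 and 0.754. Of all features, 0.0802% correlated as highly with ETS2 as that ZFP36 probe and 0.250% as that JUN probe. Counted from the ZFP36 and the JUN probe instead, the shares were 0.419% and 0.294%. Hypoxia 3 and hypoxia 2 were the 2 highest arrays for all 3 probes, and without those arrays the correlations were 0.737 and 0.497. FOS was nearer to this set than to JUND. Its dimmer probe had 0.747 with the dimmer ZFP36 probe (Spearman 0.929) and 0.627 with ETS2 (Spearman 0.786), but 0.09 with JUND and 0.24 with the brighter JUN probe. Its brighter probe had 0.649 with the dimmer ZFP36 probe and 0.480 with ETS2, but 0.05 with JUND, -0.37 with the brighter ZFP36 probe and 0.287 with the brighter JUN probe. Of all features, 45.8% correlated at least as highly with FOS as the brighter probe of JUN, its dimer partner, did.

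**Figure D4:**
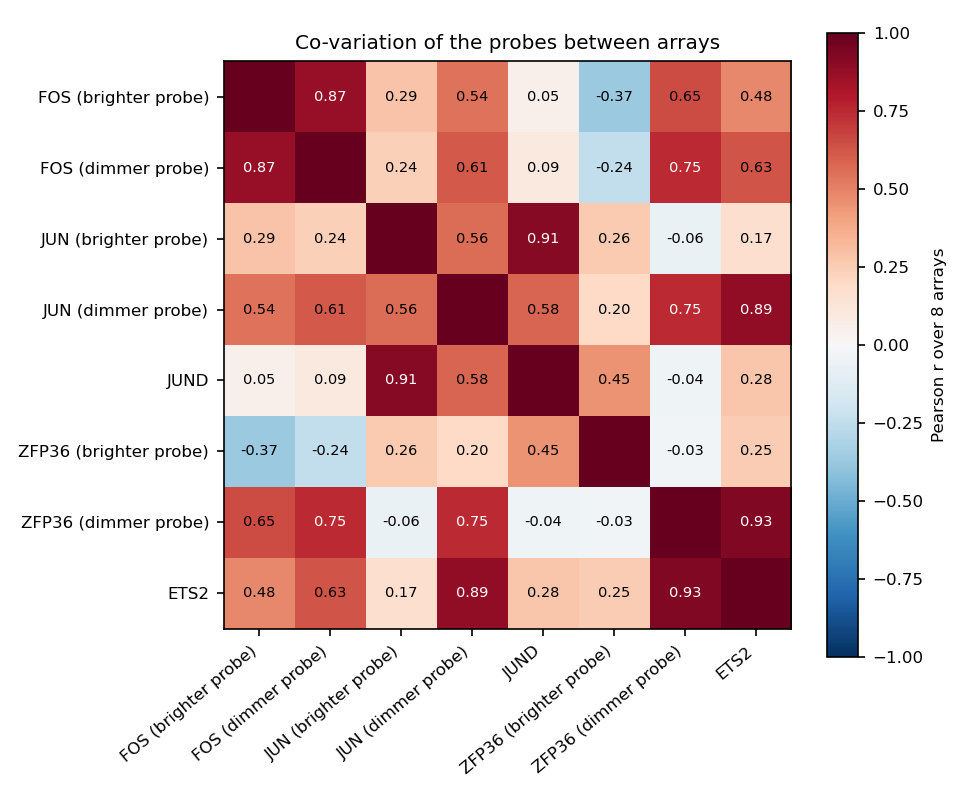
Pearson correlation of log2 level over the 8 arrays for every pair of the 8 probes, from blue (-1) to red (1). The brighter JUN probe pairs with JUND (0.91), ETS2 pairs with the dimmer ZFP36 and JUN probes (0.93 and 0.89), and the brighter ZFP36 probe pairs with none of them above 0.45.

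Each gene's brighter or single probe was also compared with 536 other named genes, each by its brightest probe, over the same 8 arrays. The closest to FOS were KDR, the main VEGF receptor of endothelium (Pearson r 0.896), the zinc finger factor YY1 (0.870), the proteasome subunit PSMD4 (0.863), the guanylate cyclase subunit GUCY1B1 (0.843) and CITED2, a hypoxia-inducible coactivator (0.842). The closest to JUN after JUND were PURA (0.897), the growth factor IGF2 (0.894), EM4C (0.886) and VEGFA (0.876). EM4C was dim, at -6.75 on normoxia 2 and -7.88 on hypoxia 4. For JUND they were JUN, DOHH (0.803), the apoptosis effector BAX (0.774, with a difference of 1.43 and SE 0.50), PURA (0.757) and the bone protein gene BGLAP (0.744). For ETS2 they were TRPC4AP (0.931), the small GTPase RAC1 (0.841), the lysosomal protease CTSB (0.801), the 14-3-3 protein YWHAE (0.789) and CITED2 (0.781). The brighter ZFP36 probe was closest to ENDOG (0.870), BCAT2 (0.770), the calpain subunit CAPNS1 (0.768) and UBB (0.741), and the groups were near each other in these 4 genes, from -0.30 to 0.33.

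Of the other AP-1 genes, JUNB, a JUN relative, was at 0.40, -1.12, -0.89 and -0.79 on normoxia 1 to 4 and at 0.37, -0.28, -0.19 and -1.20 on hypoxia 1 to 4. Its highest arrays were the replicate 1 arrays of both groups, and its difference was 0.27 (SE 0.45), with 0.35 from a second probe. Of the 5 measured AP-1 genes 4 were higher in hypoxia, against 48.3% of all features, and 0 passed the limma test. Without FOS, JUN and JUND, which were chosen on this contrast, 1 was higher and 1 lower, with a median of 0.048. The median of the 5 was 0.56, but -0.06 with normexp, 0.27 without hypoxia 1 and 0.28 without normoxia 3.

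Outside AP-1, 6 immediate early genes were measured, ZFP36 among them. All 6 had a higher mean in hypoxia on this scale, against 48.3% of all features, and 0 passed the test. Their median difference was 0.23. ZFP36 was chosen on this contrast, and the other 5 had a median of 0.255. The median of the 6 was 0.043 without hypoxia 1, 0.12 without normoxia 2 and 0.52 without hypoxia 4. With slide as a block EGR1 was at -0.41 and MYC at -0.29, and with normexp they were at -0.33 and -0.15. ZFP36 went below 0 with normexp and median scaling, and NFKBIA with median scaling. Besides ZFP36 these were CITED2, at 0.97 (SE 0.40) and higher in 4 of 4 pairs, the matrix protein CCN1 at 0.55 (SE 0.75), MYC at 0.26 (SE 0.51), EGR1 at 0.21 (SE 0.64) and the NF-kappa B inhibitor NFKBIA at 0.12 (SE 0.25). EGR1, which serum response factor induces together with FOS, was at -0.86, -2.26, -1.82 and -1.80 on normoxia 1 to 4 and at -0.24, -1.19, -1.17 and -3.27 on hypoxia 1 to 4. The lowest EGR1 array was thus hypoxia 4, the hypoxia array that was also lowest for both FOS probes. CCN1 went another way on the replicate 1 arrays, with 0.04 on hypoxia 1 and -0.67 on normoxia 1 against 1.25 to 2.38 on the other 6. The only other ETS factor measured, GABPA, was at -0.10 (SE 0.23).

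Upstream of these genes, 2 of 4 measured genes of MAP kinase and serum response signalling were higher and 2 lower, with 0 past the test and a median of 0.06, which ran from -0.45 without normoxia 2 to 0.58 without normoxia 1. RAC1 was at 0.99 (SE 0.36), higher in 4 of 4 pairs, and EGFR, the receptor for epidermal growth factor, at -0.39 (SE 0.47). Of 6 measured genes reported as AP-1 or ETS2 targets, 4 were higher and 2 lower, with 0 past the test and a median of 0.15. That median was -0.028 without hypoxia 3, 0.44 without hypoxia 4, 0.35 without hypoxia 2 and 0.26 without normoxia 1, and -0.023 with median scaling and -0.27 with normexp. The protease MMP2 was at 0.84 (SE 0.51), with 0.20 from a second probe, and its inhibitor TIMP1 at -0.60 (SE 0.39), lower in 4 of 4 pairs. The collagenases MMP1 and MMP13 were below the filter on dim probes.

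Of 8 measured mRNAs reported to be bound by ZFP36, 3 were higher and 5 lower, 0 passed the test, and the median was -0.23. Its sign rested on single arrays, with 0.33 without normoxia 1, 0.33 without hypoxia 4 and -0.56 without hypoxia 1. VEGFA was at 0.88 (SE 0.62), and PTGS2, the inducible cyclooxygenase, at -0.31 (SE 0.28). TNF, the best known ZFP36 target, was at -0.25 (SE 0.58) and IL1B at -0.50 (SE 0.78). IL6, IL10, IL1A, CSF2 and IL3 were below the filter on dim probes. Among heat shock and stress chaperones 3 of 5 were higher, with 0 past the test and a median of 0.60, which was 0.30 without normoxia 1 and 0.33 without hypoxia 3. HSP70.1, an inducible heat shock protein, was at 1.11 (SE 0.41) with no overlap between the groups (1.72% of all features), and HSP90AA1 was at 0.74 (SE 0.38).

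Markers of other cell types also differed between arrays. Of 4 measured endothelial genes 3 were higher in hypoxia, TIE1 at 2.14 (SE 1.09), NOS3 at 1.12 (SE 0.58) and KDR at 0.81 (SE 0.59), while FLT1 was at -0.91 (SE 1.53). TIE1 was well above background on 3 hypoxia arrays but only 1 normoxia array. It thus passed the filter on dim probes mainly through hypoxia, and its difference supports nothing. With normexp TIE1 was at 0.05. The 3 further KDR probes ran from -0.59 to 1.32. With normexp KDR was at -0.32 and the median of the 4 at -0.13. Their mean level ran from -4.40 to -1.21 in hypoxia and from -3.90 to -2.13 in normoxia, and it was lowest on hypoxia 4, the hypoxia array lowest for FOS, ETS2 and the dimmer ZFP36 probe. Of 3 adventitial fibroblast genes 2 were higher, COL3A1 at 1.80 (SE 0.81), with 0.53 and 0.54 from 2 further probes, and COL1A1 at 0.96 (SE 0.53). The mean level of the 3 genes was 0.81 to 2.25 in hypoxia and 0.04 to 1.90 in normoxia. Their median difference of 0.96 was -0.14 with normexp and 0.56 without hypoxia 3. All 3 smooth muscle genes were lower in hypoxia, MYLK at -0.60 (SE 0.66) and CNN1 at -0.62 (SE 0.77), but their median of -0.60 was -0.098 without hypoxia 1, -0.12 without normoxia 4 and -0.037 with slide as a block, where MYLK was at 0.11. CNN1 was at 4.98 on hypoxia 1, its lowest array. None of these markers passed the test, and their part in the values of FOS, JUN, JUND, ZFP36 and ETS2 was not tested.

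Leukocyte genes were lower in hypoxia in 7 of 7 on this scale, where 48.3% of all features were higher. Their median was -0.21, which was 0.026 without normoxia 1 and -0.82 without hypoxia 1. CD4 was at -0.015, but at 0.011 with cyclic loess and 0.34 with quantile normalization. FCER1G was at -0.72 (SE 0.27), with no overlap between the groups, and ITGB2 was at -0.95 (SE 0.48). Of all features, 0.963% had every hypoxia array below every normoxia array. A second FCER1G probe was at -0.36. The mean level of the 7 genes was -4.03 to -1.77 in hypoxia and -3.41 to -1.59 in normoxia. Skeletal muscle genes (5 of 13 listed, MYH1 at -1.17 and TNNC2 at -0.29) and adipocyte genes (5 of 7 listed, LEP at -0.55 and FABP4 at -0.36) varied far more between arrays than between groups, from -6.77 on hypoxia 4 to -1.28 on normoxia 1 and from -5.36 on hypoxia 4 to -1.10 on hypoxia 1. Without hypoxia 4 the median differences of both lists turned, from -0.80 to 0.10 and from -0.36 to 0.22. Erythroid genes were at 0.36 for HBB and 0.16 for AHSP, with a median of 0.26 that was -0.29 without normoxia 2 and -0.13 without hypoxia 3, and the nerve gene NPY was at -0.44. Hypoxia 4 was the lowest array for endothelial, skeletal muscle, adipocyte and leukocyte genes alike. Several of these probes were dim, and MYH1, LEP, FLT1 and CD3E were well above background on only 2 hypoxia arrays. In the authors' series table, 24.6% of values on hypoxia 4 and 24.2% on normoxia 2 were at its floor. The part of background in these low values was not tested, nor that of these cell types in the levels of the 5 genes.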

How the data were processed

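The authors deposited 1 scanner file per array, with linear intensity values from Agilent Feature Extraction 9.5.3.1 (protocol GE1-v5_95_Feb07, design 019921), per the file headers. Their processed intensity is already background-subtracted and detrended within each array, with no scaling between arrays, per the file headers. A deposited series table gives a ratio, used here as an alternative; judged by comparing values, it divides the processed intensity by the array's 75th percentile and stops at a floor of 0.01. The medians of its columns were 0.328, 0.132, 0.228 and 0.137 (normoxia 1, 2, 3, 4) and 0.326, 0.158, 0.308 and 0.141 (hypoxia 1, 2, 3, 4), and its log2 values correlated with the scanner values at 0.993 or more on each array. The reason for this scale is not given in the sources used here.

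Control spots (536 of 15744) and outlier spots were left out, spots of a probe were averaged, and log2 intensity was taken minus the array's 75th percentile. A probe was kept when well above background on at least 4 of 8 arrays, and 60 probes without a value on every array were dropped, which left 11216 features. The brightest kept probe stood for a gene in lists and comparisons between genes. Names came from the array's gene name, RefSeq accession or gene ID and the RefSeq gene table of assembly ARS-UI_Ramb_v3.0, used for names only, with a short table of older names: 1198 of 15008 probes had a name, for 689 genes, and the other 13810 stayed in the tests under their probe ID. No probe sequences or coordinates were used here.

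The test was limma 3.58.1, run under R 4.3.3, by lmFit followed by eBayes, adjusted by Benjamini-Hochberg over all features. The code was checked on simulated data. SE is limma's moderated standard error. The number of arrays limits the precision. The genes and the lists were chosen with earlier results of these data known. Named genes were all probes of the 5 genes, 2 other genes per list, those of lowest p, plus any whose groups did not overlap, and the 5 named genes closest to each of the 5 genes by Pearson correlation; some further list members (such as MYC, EGR1, TNF, IL1B and FLT1) were added after their values were seen. Some genes that this rule names are not reported here. The groups share replicate numbers, which no label explains. Once group means were removed, arrays of one number correlated at 0.820, 0.726, 0.584 and 0.434 (numbers 1, 2, 3, 4). For numbers 1 and 3 the same-numbered array was the closest of the other group in both directions. Normoxia 2 and hypoxia 4, both on slide 2, were closest to each other. The values therefore do not settle whether the numbers stand for pairs. The printed differences, SE and counts come from the fit without pairs, and the fit with the replicate number as a block is an alternative. Thyroid and thymus genes, of which only TSHR was named, had none above the filter.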

Additional observations from a re-analysis of the deposited data

Results flagged for a closer look

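For both FOS probes, hypoxia 4 stood far from the other 3 hypoxia arrays. Its gap to the nearest of them was 0.852 of the range of the hypoxia group for probe A_70_P016316 and 0.844 for probe A_70_P016317, at levels of -2.58 and -2.54. These were the 2 groups flagged by a Dixon test for a distant sample among the 16 tested (8 probes in 2 groups). Both come from the same gene and array. The genes were chosen on how they vary between these arrays, and the 16 groups are not independent. The usual rate of about 1 in 20 flagged by chance therefore does not apply, and the flags are descriptions. Without hypoxia 4 the FOS differences were 0.75 and 1.14.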

How the results depend on the processing

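The count of 0 features past an adjusted p of 0.05 by limma held under every alternative with a test, with 24 (normexp) to 1337 (replicate number as a block) features at an unadjusted p under 0.05, against 413. With the replicate block the smallest adjusted p was 0.317 and 0 features passed, so the pairing changed no call. For the brighter or single probe of each gene, differences moved by less than 1 SD of the arrays except as follows. FOS went to -0.28 with normexp, ZFP36 to 0.41 within slide 1, -0.38 within slide 2 and 0.66 as the mean of its probes, and ETS2 to 1.27 within slide 1 and 0.031 within slide 2. The dimmer probes moved by more for FOS (-0.15 with normexp, 0.21 within slide 2), JUN (0.34 with normexp, -0.14 within slide 2) and ZFP36 (2.31 within slide 1, 0.28 within slide 2). The medians of gene lists moved to -0.19 with slide as a block and -0.22 within slide 1 for AP-1 subunits, -0.073 with normexp and -0.0697 within slide 2 for the ETS family, -1.28 within slide 1 for MAP kinase signalling, 1.23 for chaperones and -1.27 for erythroid genes within slide 1, and -0.64 within slide 2 for endothelial genes. The range over arrays moved to 2.23 with quantile normalization and 1.96 with normexp for FOS, 1.92 with median scaling and 1.62 with normexp for ZFP36, and 2.35 with quantile normalization and 2.44 with median scaling for ETS2. The cause of these moves was not tested. Median scaling moved the median of all features from -0.02 to -0.20. Each value within a slide rests on 1 normoxia array. Leaving out 1 array gave 0.39 to 0.84 for FOS, 0.27 (without hypoxia 1) to 0.92 (without normoxia 1) for JUN, 0.34 to 1.14 for JUND, -0.06 to 0.17 for ZFP36 and 0.60 to 0.92 for ETS2. The dimmer FOS probe was near background on normoxia 1 and 4, which limits its values.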

Other observations

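On the array, 2 probes without a gene name carry a cDNA entry that is also listed for a FOS or a JUN probe, and were looked at after the values of those probes were seen. Probe A_70_P001561, whose entry is listed for both FOS probes, was at -1.14, -5.44, -2.18 and -3.55 on normoxia 1 to 4 and at -1.20, -4.01, -2.38 and -4.53 on hypoxia 1 to 4, with a difference of 0.05 (SE 1.06). It was high on the replicate 1 arrays and low on normoxia 2 and hypoxia 4, an order that neither FOS probe showed. Probe A_70_P018671, whose entry is listed for the brighter JUN probe, ran from -5.55 on hypoxia 2 to 0.87 on normoxia 1, with a difference of -1.37 (SE 1.63), while hypoxia 2 was the second highest array for both JUN probes. Whether these probes measure FOS and JUN transcripts was not tested.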
